A study of Homo sapiens with 2 samples.

Results

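The 55 genes described here lie on the long arm of chromosome 18 (18q) and were compared between 2 sorted subclones of HMC1, an established human line from mast cell leukaemia. They were chosen because neighbouring genes on this arm had read lower in the CD2-positive subclone on these same arrays. The differences therefore describe the choice and test nothing. A probe set is a group of short probes read as 1 value, and each gene was read by the brightest probe set, by mean log2 of both arrays, among those annotated to that gene alone. Of the 55 genes, 54 had such a probe set, among 19775 genes on the array, and RNF125 was not named by the annotation used here. The CD2-positive subclone had been sorted by flow cytometry with an antibody against CD2, an adhesion receptor of T and NK cells that is also found on neoplastic mast cells. The CD2-negative subclone had been sorted as cells without surface CD2. Each subclone was measured as total RNA on 1 Affymetrix U133 Plus 2.0 array, so no value has an error between replicates and no p-value was computed. The sources used here do not say whether a subclone grew from a single cell or how long it was cultured.

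Genes of a chromosome arm have no common function, but they share a stretch of DNA and are gained or lost together when the arm changes in copy number. 18q is best known for SMAD4, the shared partner of the signal-carrying SMAD proteins in TGF-beta signalling, and loss of parts of this arm is frequent in pancreatic and colorectal carcinoma. The arm also carries the Niemann-Pick C1 gene NPC1, the paracaspase gene MALT1 and several genes of vesicle traffic and chromatin. DNA copies were not measured here.

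CD2 itself read 219 in CD2-positive and 13 in CD2-negative cells, which follows the labels. Of 9 mast cell markers with a probe set, 8 had a mean log2 of at least 6. The 9 had a summed intensity of 11674 in CD2-positive and 8164 in CD2-negative cells. Each read higher in CD2-positive cells, least for SRGN at 1889 against 1862. The largest differences were those of CPA3 at 1220 against 207, FCER1A at 27 against 8 and HPGDS at 187 against 80. Markers of T and NK cells, B cells and monocytes were read by 16 probe sets, with a summed intensity of 57 in CD2-positive and 55 in CD2-negative cells, and no such marker exceeded 7. Of the erythroid, epithelial and fibroblast markers, KRT19 read 197 against 198, HBB 17 against 28 and COL1A1 17 against 13, and the others read 4 or less. The 27 probe sets for bacterial (Bacillus) transcripts, absent from human cells, read 4 at most. The 18 hybridisation controls, transcripts spiked into the hybridisation, had a median log2 difference of -0.18 (range -0.40 to -0.04), always CD2-positive minus CD2-negative. RNA from bulk cultures cannot tell fewer expressing cells from less RNA per cell.

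Most 18q genes read slightly lower in the CD2-positive subclone. Their median log2 difference was -0.36 over all 54 genes, which is 1.28-fold lower, with a range from -1.43 for TCF4 to 0.77 for PARD6G. Of the 54 genes, 41 had a difference below 0, 11 above 0 and 2 exactly 0. Deposited values are whole numbers, so dim genes have coarse differences, and the counts are set against all genes of the same brightness. The 25 members with a mean log2 of at least 6, an intensity of 64, had a median of -0.30, against -0.04 for all 3276 genes at that level. Of these 25, 18 were below 0, against 55.6% of the 3276, and 12 were at least 20% lower, the first size counted here, against 15.0%. At least 1.5-fold lower were 2 of the 25, SMAD4 and SLC39A6, against 3.14%, and none was 2-fold lower, against 0.397%. In the other direction PARD6G and MAPRE2 were at least 25% higher, against 11.1%, and PARD6G alone was at least 1.5-fold higher, against 3.72%.

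In the next tier, with a mean log2 of 4 to 6, the 20 members had a median of -0.39, against 0.00 for all 4543 genes of that tier. Of these 20, 17 were below 0, against 49.4%, 11 were at least 20% lower, against 16.9%, and 6 were at least 1.5-fold lower, against 4.8%. TCF4 alone was at least 2-fold lower, a size that 0.88% of the 4543 genes reached, and no member was at least 25% higher, against 13.0%. The other 9 genes had a mean log2 under 4, an intensity of 16, and their folds are not interpreted. With every value moved by 0.5 towards the other array, 49 of the 54 kept a direction. The exceptions were INO80C and SETBP1, which read the same on both arrays, and OSBPL1A, B4GALT6 and MYO5B. Scaling also mattered. With the hybridisation controls set to 0, every difference moves up by the same amount, so that the median of all 3276 genes was 0.14 and that of the 54 genes -0.18. Of the 54 genes 39 were then below 0, and SS18 and LMAN1 turned above 0. At least 20% lower were then 2 of the 25 brighter genes, or 8% against 4.95% of the 3276, and 7 of the 20 in the next tier, or 35% against 7.02% of the 4543.

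**Figure D1:**
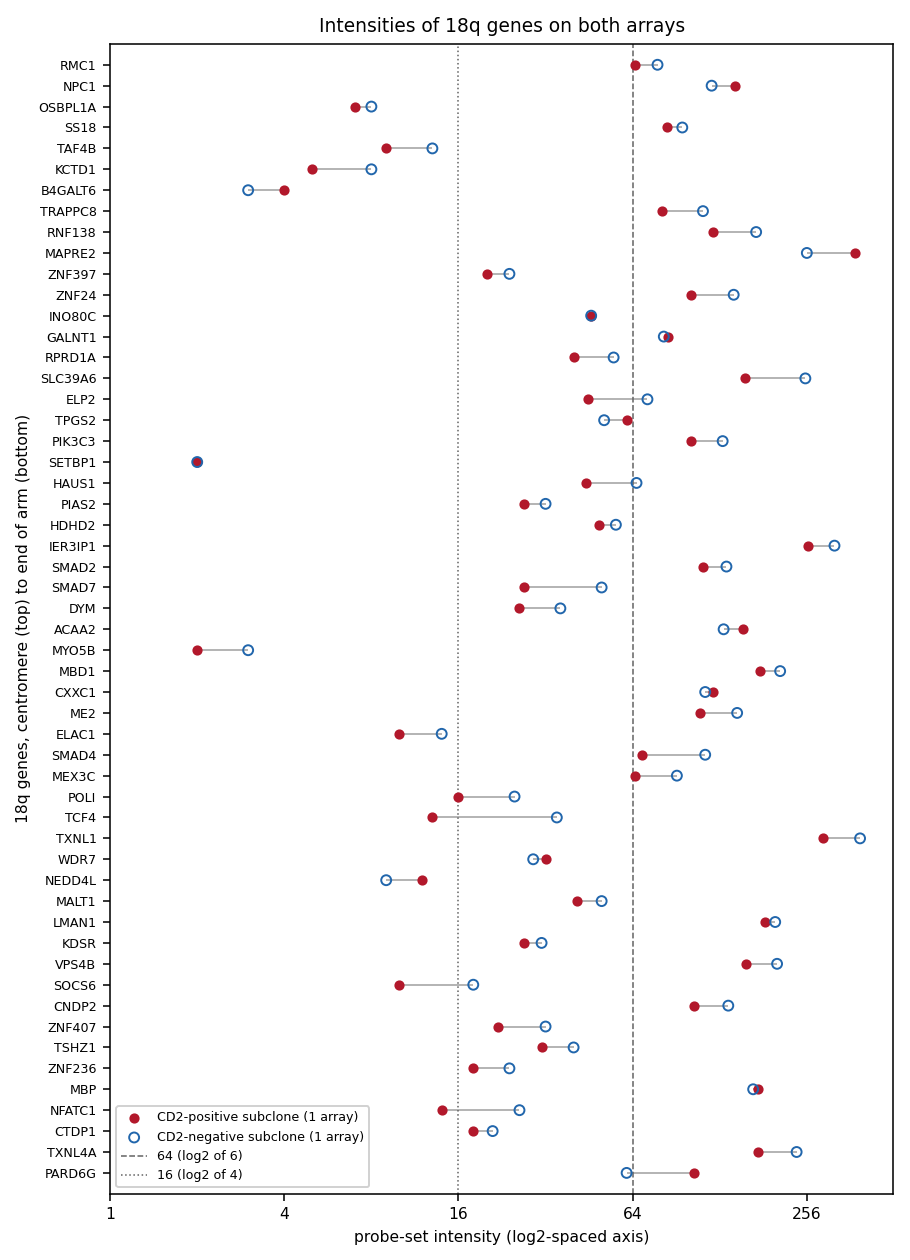
Intensity (log2-spaced axis) of the 54 measured 18q genes in gene order from the centromere at the top, with filled points for the CD2-positive and open circles for the CD2-negative subclone, 1 array each. Filled points lie left of the circles for 41 genes, most widely for TCF4 at 13 against 35, and right of them for 11 genes such as PARD6G at 104 against 61.

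Among genes with a mean log2 of at least 6, SMAD4 and SLC39A6 were the lowest and PARD6G and MAPRE2 the highest in difference. Their promoters, 250 bases before to 50 after the start, are shown because they stand at the opposite ends of the range. They come from the RefSeq table of build GRCh38.p14, as SMAD4 at chr18:51029963-51030262 (plus strand), SLC39A6 at chr18:36129291-36129590 (minus), PARD6G at chr18:80247465-80247764 (minus) and MAPRE2 at chr18:35041163-35041462 (plus, the first of 2 listed). Capitals mark the GC box GGGCGG on either strand.
SMAD4: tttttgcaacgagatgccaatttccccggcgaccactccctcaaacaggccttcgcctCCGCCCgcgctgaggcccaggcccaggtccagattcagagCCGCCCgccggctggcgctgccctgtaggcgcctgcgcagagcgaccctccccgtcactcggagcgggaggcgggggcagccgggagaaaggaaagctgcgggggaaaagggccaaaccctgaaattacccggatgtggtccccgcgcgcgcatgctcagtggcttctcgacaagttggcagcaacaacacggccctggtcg
SLC39A6: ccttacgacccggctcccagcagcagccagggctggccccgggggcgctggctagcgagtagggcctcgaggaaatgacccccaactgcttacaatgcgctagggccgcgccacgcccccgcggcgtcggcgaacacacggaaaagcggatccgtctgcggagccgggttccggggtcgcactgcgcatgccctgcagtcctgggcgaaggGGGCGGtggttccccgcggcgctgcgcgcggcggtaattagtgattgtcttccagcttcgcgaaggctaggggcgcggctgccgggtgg
PARD6G: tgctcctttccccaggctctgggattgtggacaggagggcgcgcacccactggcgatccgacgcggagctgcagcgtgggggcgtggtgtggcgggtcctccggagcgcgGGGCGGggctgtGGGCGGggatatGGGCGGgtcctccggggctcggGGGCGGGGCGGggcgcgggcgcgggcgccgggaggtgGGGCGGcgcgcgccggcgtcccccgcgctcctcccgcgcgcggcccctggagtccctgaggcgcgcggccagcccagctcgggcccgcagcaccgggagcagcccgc
MAPRE2: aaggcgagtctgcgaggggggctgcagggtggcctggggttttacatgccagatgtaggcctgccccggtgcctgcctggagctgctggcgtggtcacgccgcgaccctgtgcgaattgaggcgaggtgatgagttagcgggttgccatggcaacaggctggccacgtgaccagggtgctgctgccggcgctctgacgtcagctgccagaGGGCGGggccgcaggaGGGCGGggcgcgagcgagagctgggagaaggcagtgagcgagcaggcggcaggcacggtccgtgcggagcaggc
The GC box occurred 2 times in the window of SMAD4, 1 time in that of SLC39A6, 6 times in that of PARD6G, where 2 of the matches share bases, and 2 times in that of MAPRE2. All of these windows held it, those of the lower and of the higher genes alike. A first listed promoter was found for 50 of the 55 genes, and 74.0% of these held a GC box, against 70.7% of 2802 genes with a mean log2 of at least 6 and 44.6% of 27305 listed genes. The ETS motif CCGGAAG, searched on both strands, was in 18% of the 50 windows against 23.2% of the 2802, and the motif CCAAT in 40.0% against 39.0%. The median number of CpG pairs was 28.5 in the 50 windows and 26 in the 2802. These are matches of letters and do not show binding.

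All 3 SMAD genes read lower in the CD2-positive subclone. SMAD4, whose protein joins receptor-activated SMADs to enter the nucleus, read 69 in CD2-positive and 114 in CD2-negative cells, 1.65-fold lower. Its other probe set with a mean log2 of at least 4 read 20 against 23, a much smaller difference of -0.20. SMAD7, the inhibitory SMAD that blocks TGF-beta receptors, read 27 against 50, 1.85-fold lower, on its only probe set. SMAD2, which TGF-beta and activin receptors phosphorylate, read 112 against 135, a difference of -0.27, and its next probe sets gave -0.25 and -0.06. The size thus varied more among SMAD4 probe sets than between SMAD2 probe sets. Of 27 other genes of SMAD and TGF-beta signalling with a probe set, 7 had a mean log2 of at least 6. Of these 7, 2 were below 0, against 55.6% of the 3276, and the median was 0.10. None was at least 20% lower, against 15.0%, and 1 was at least 25% higher, against 11.1%. TGFB1, the ligand gene, read 111 against 86. SKIL, whose product SnoN represses SMAD targets, had a difference of 0.27. TGFBR2, the type II receptor gene, had one of -0.21.

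The 7 genes grouped here as DNA-binding factors were all lower, with a median of -0.49 and 6 at least 20% lower. The CpG-binding genes MBD1 (-0.23) and CXXC1 (0.09) were grouped with chromatin instead. Of all genes at a mean log2 of 4 to 6, the tier of all but ZNF24, 49.4% were below 0 and 16.9% at least 20% lower. From a mean log2 of 6, these shares were 55.6% and 15.0%. TCF4, an E-protein transcription factor known for plasmacytoid dendritic cell and neural development, read 13 in CD2-positive and 35 in CD2-negative cells, 2.69-fold lower. It was dim on every probe set, but 7 of its 8 probe sets were below 0, from -1.58 to -0.81, and the other read 2 on both arrays. NFATC1, a calcineurin-dependent factor, read 14 against 26, while its next probe sets read 10 against 13 and 10 on both arrays. Of 4 other NFAT pathway genes with a mean log2 of at least 6, none was at least 20% lower or 25% higher, with NFATC3 at 0.05 and PPP3CB, a calcineurin catalytic subunit gene, at -0.06. ZNF24, a zinc finger repressor gene, read 102 against 143, and its 3 probe sets with a mean log2 of at least 4 agreed closely, from -0.63 to -0.49. Also lower were the zinc finger genes ZNF407 (-0.54), ZNF236 (-0.42) and ZNF397 (-0.26) and the homeobox and zinc finger gene TSHZ1 (-0.37).

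Chromatin and transcription genes, with SS18, MBD1 and CXXC1 of the brighter tier among them, differed less. Of the 6 genes with a mean log2 of at least 4, 4 were below 0, 1 was at 0 and 1 above, with a median of -0.20. RPRD1A alone was at least 20% lower, or 16.7%, near the 15.0% and 16.9% of all genes in the upper and next tier. RPRD1A, which binds the tail of RNA polymerase II, read 40 against 55, with its 3 probe sets at a mean log2 of at least 4 between -0.55 and -0.46. MBD1, a methyl-CpG-binding protein gene, read 177 against 207, and its 4 probe sets at that level ranged widely, from -0.61 to -0.04. SS18, a BAF complex subunit gene, read 84 against 95 on its brightest probe set. Its probe sets disagreed in sign, with 3 below 0 and 1 at 0.18. CXXC1, the CpG-binding subunit gene of the SET1 methyltransferase complex, read 121 against 114. INO80C of the INO80 remodelling complex read 46 on both arrays, and CTDP1, a phosphatase gene for the polymerase tail, read 18 against 21. TAF4B, KCTD1 and SETBP1 read 9 against 13, 5 against 8, and 2 on both arrays, too dim for a fold.

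The 3 genes of RNA processing and DNA repair with a mean log2 of at least 4 were all at least 20% lower. So were 15.0% of all genes from a mean log2 of 6 and 16.9% at 4 to 6. ELP2, a subunit gene of Elongator, which modifies transfer RNAs, read 45 in CD2-positive and 72 in CD2-negative cells, but a second probe set read 23 against 25. TXNL4A, a U5 spliceosome protein gene also called DIM1, read 174 against 236, 1.36-fold lower. POLI, a translesion DNA polymerase gene, read 16 against 25. ELAC1, a transfer RNA repair enzyme gene, read 10 against 14 and was under that level.

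**Figure D2:**
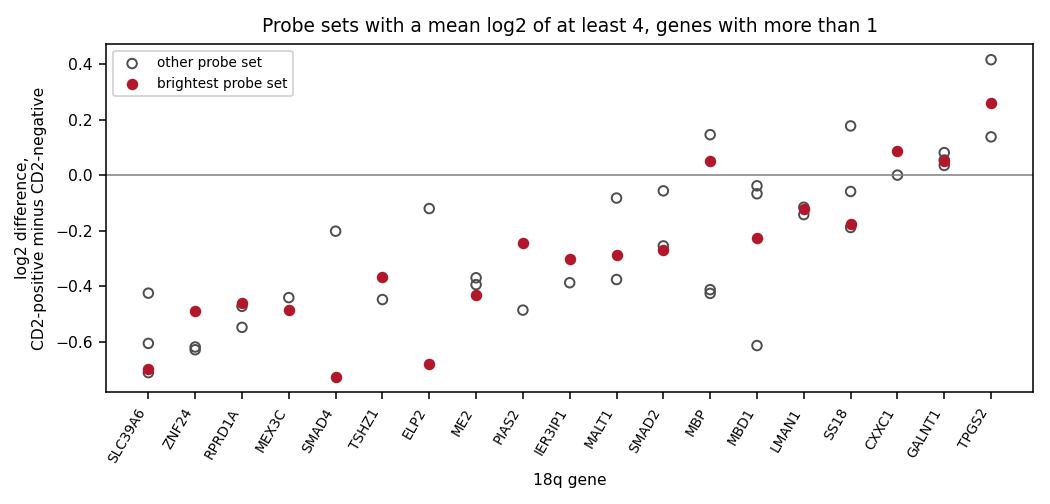
Log2 differences of all probe sets with a mean log2 of at least 4 for the 19 18q genes that have more than 1, with the brightest set filled. In 14 genes every such probe set was below 0, in 2 every one was above 0, and the points of MBP and SS18 lie on both sides of 0. No share over all genes is given for these counts, and the genes were chosen for low readings on these arrays.

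Genes of the secretory and membrane traffic system were mostly lower. Of 8 with a mean log2 of at least 4, 6 were below 0 and 4 at least 20% lower, with a median of -0.33. Of all genes, 55.6% were below 0 and 15.0% at least 20% lower from a mean log2 of 6. At 4 to 6, these shares were 49.4% and 16.9%. SLC39A6, a zinc importer gene also known as LIV-1, read 156 in CD2-positive and 253 in CD2-negative cells, 1.62-fold lower. Its 4 probe sets were all below 0, between -0.71 and -0.42. TRAPPC8, a subunit gene of the TRAPP tethering complex, read 81 against 112, while the 3 other TRAPP genes with a mean log2 of at least 6 lay between -0.15 and 0.16. VPS4B, an ATPase gene that disassembles ESCRT-III, read 158 against 202. Its 5 ESCRT partners had a median of -0.16, led by CHMP2A at 132 against 190. IER3IP1, a gene for a small protein of the endoplasmic reticulum, read 259 against 319. LMAN1, the cargo receptor gene ERGIC-53, read 183 against 199 with 3 probe sets from -0.14 to -0.12. MCFD2, its partner in the transport of coagulation factors, had a difference of 0.25. Among 13 cargo receptor and COPII coat genes, none of them on 18q, 11 were below 0, against 55.6% of the 3276. SAR1B read 50 against 82, SAR1A 85 against 124 and SEC13 180 against 245. GALNT1, which starts mucin-type O-glycosylation, read 85 against 82, with its 4 brightest probe sets between 0.03 and 0.08, and WDR7, the gene of the beta subunit of Rabconnectin-3, which acts on the vesicle proton pump, read 32 against 29. DYM, a Golgi protein gene, read 26 against 36, and MYO5B, a myosin motor gene, read 2 against 3.

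Lipid and lysosome genes went both ways. NPC1, the lysosomal cholesterol exporter gene, read 145 in CD2-positive and 120 in CD2-negative cells, 1.21-fold higher. RMC1, its neighbour in gene order, whose product belongs to the Mon1-Ccz1 complex that activates Rab7, read 65 against 78, 1.20-fold lower. These neighbours therefore stood on opposite sides of 0. PIK3C3, the catalytic subunit gene of the class III phosphatidylinositol 3-kinase of autophagy, read 102 against 131, while BECN1, its only partner with a mean log2 of at least 6, had a difference of 0.06. KDSR, the second enzyme gene of sphingolipid synthesis, read 27 against 31. OSBPL1A read 7 against 8 and B4GALT6 4 against 3, at or near the level of the bacterial probe sets. For the partners in lysosomal sterol transport, 8 genes had a median of 0.00, and the lysosomal protein gene LAMP2, on chromosome X, was farthest from 0 at 124 against 178. Among the partners in sphingolipid synthesis, 9 genes had a median of -0.09, with SGPL1 at 67 against 94 and UGCG at 138 against 108.

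Of 4 genes of ubiquitin, SUMO and cytokine signal control with a mean log2 of at least 4, all were below 0 and 2 at least 20% lower. Shares of all genes were 55.6% and 15.0% from a mean log2 of 6, and 49.4% and 16.9% at 4 to 6. RNF138, a ubiquitin ligase gene of DNA repair, read 121 against 171, 1.41-fold lower. MEX3C, an RNA-binding ubiquitin ligase gene, read 65 against 91, and a second probe set at 14 against 19 gave a like difference of -0.44. MALT1, the paracaspase gene that works with BCL10 and CARD proteins towards NF-kB, read 41 against 50, with 3 probe sets from -0.38 to -0.08. Its partners off 18q were lower as well. All 5 with a mean log2 of at least 6 were below 0, against 55.6% of the 3276, with a median of -0.34. Farthest from 0 were CASP8 at 60 against 87, IKBKG at 66 against 86 and BCL10 at 80 against 101. PIAS2, a SUMO ligase gene, read 27 against 32. SOCS6, a suppressor of cytokine and KIT signalling, read 10 against 18, with its 3 probe sets all below 0, and NEDD4L, a ubiquitin ligase gene for sodium channels and phosphorylated SMAD2, read 12 against 9, both under that level.

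Metabolic and redox genes were lower in 4 of 5 cases, against 55.6% of all genes from a mean log2 of 6 and 49.4% at 4 to 6. TXNL1, a thioredoxin-like protein gene of the proteasome, read 292 in CD2-positive and 391 in CD2-negative cells. ME2, the mitochondrial malic enzyme gene, read 109 against 147, with 3 probe sets between -0.43 and -0.37, and CNDP2, a cytosolic dipeptidase gene, read 104 against 137. HDHD2 read 49 against 56. ACAA2, the mitochondrial thiolase gene of fatty acid oxidation, was the one above 0, at 154 against 132.

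Cytoskeleton, polarity and membrane genes were the one group with a positive median, 0.26, and 4 of 5 were above 0. Above 0 were 1370 of all 3276 genes from a mean log2 of 6 and 1918 of the 4543 at 4 to 6. PARD6G, a cell polarity scaffold gene and the last gene in the order, read 104 in CD2-positive and 61 in CD2-negative cells, 1.70-fold higher. Its dimmer probe sets, at 11 against 5 and 6 against 4, had a mean log2 under 4 and are not interpreted. MAPRE2, the microtubule end-binding protein gene EB2, read 377 against 256, 1.47-fold higher. Its second probe set, at 11 against 9, was also under that level. TPGS2, a subunit gene of tubulin polyglutamylase, read 61 against 51, and all 3 of its probe sets with a mean log2 of at least 4 were above 0, from 0.14 to 0.42. MBP, known as myelin basic protein but also the source of golli transcripts in blood cells, read 173 against 167 on its brightest probe set. Its next brightest read 115 against 153, so the direction of MBP depends on the probe set. HAUS1, an augmin subunit gene of the mitotic spindle, read 44 against 66, 1.5-fold lower.

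Among the listed genes, the lower ones were spread from RMC1 onward. Measured genes nearer the centromere, such as ROCK1 and CABLES1, were not listed and are described below. In gene order, the 18 genes from RMC1 to TPGS2 had a median of -0.26 with 12 below 0. The 18 from PIK3C3 to POLI had one of -0.40 with 15 below 0, and the 18 from TCF4 to PARD6G had one of -0.36 with 14 below 0. Below 0 were 55.6% of all genes from a mean log2 of 6 and 49.4% at 4 to 6. Counting the listed genes alone, the longest run below 0 held 9, from MALT1 to ZNF236. It includes SOCS6, with a mean log2 under 4, and LMAN1, which turned above 0 with the hybridisation controls set to 0. Genes that were not listed lie between these, and not all were below 0, as CD226 read 20 against 14. Within the list, genes above 0 stood mostly alone between lower ones, as MAPRE2 between RNF138 (-0.50) and ZNF397 (-0.26) did. WDR7 and NEDD4L were the only listed genes above 0 that follow each other in this order, and NEDD4L had a mean log2 under 4. They are not neighbours on the arm, as FECH, at 198 against 193, and NARS1, at 537 against 620, lie between them.

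**Figure D3:**
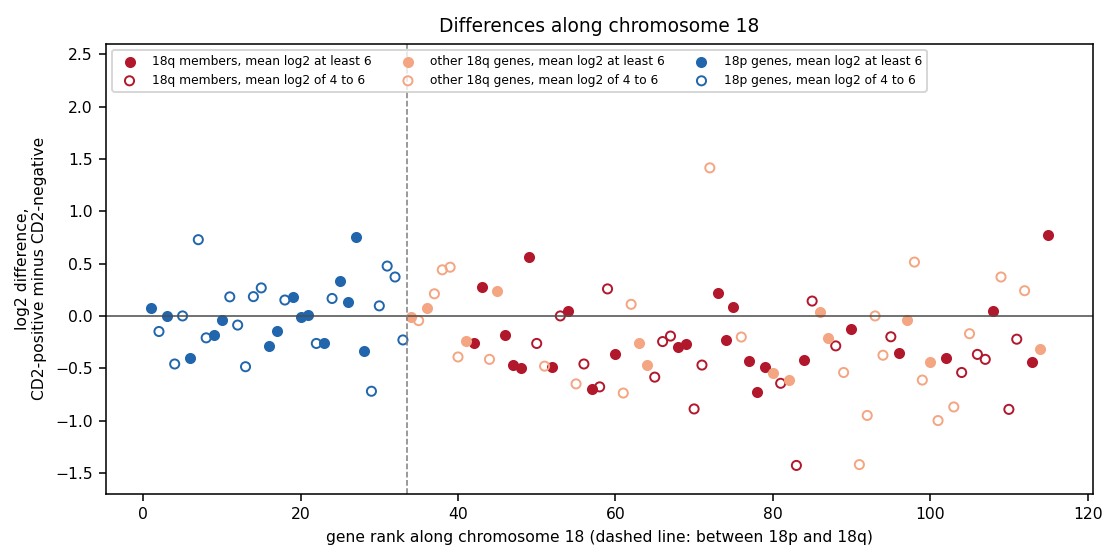
Log2 difference against gene rank for all chromosome 18 genes with a mean log2 of at least 4, with 18p left and 18q right of the dashed line and filled points for a mean log2 of at least 6. The 18p genes scatter around a median of -0.01 at the upper tier, and the 18q genes, listed or other, lie mostly below 0 with LIPG as the highest point.

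Other genes of the arm, which were not among the 55, showed a partly like picture on the same arrays. The arm was chosen from readings on these arrays, so these genes are no independent check. Of 13 such genes with a mean log2 of at least 6, 10 were below 0, against 55.6% of the 3276, and 4 at least 20% lower, against 15.0%. Their median was -0.24, but -0.055 with the hybridisation controls set to 0, -0.11 at a floor of log2 7 and 0.00 with no floor over 170 genes, most of them dim. In the tier of 4 to 6, 15 of 24 were below 0, against 49.4% of all 4543 genes there, with a median of -0.29. Of these 24, 12 were at least 20% lower, against 16.9%, and 5 at least 25% higher, against 13.0%. Differences of these sizes in either direction were thus more common among these 24 than among all genes of that tier. RAB27B, which encodes a Rab GTPase of secretory granules, read 66 in CD2-positive and 101 in CD2-negative cells, 1.53-fold lower. PMAIP1, the gene of the pro-apoptotic protein NOXA, read 31 against 83. BCL2, the gene of an anti-apoptotic protein, read 12 against 10 and was under the level of 16. Of the 6 such genes nearest the centromere with a mean log2 of at least 4, 2 were slightly below 0 and 4 above. ROCK1 read 244 against 246, ESCO1 63 against 65 and SNRPD1 157 against 149, while ABHD3 at 22 against 19, MIB1 at 19 against 14 and CABLES1 at 58 against 42 were farther above 0. LIPG, the endothelial lipase gene, was the highest exception at 48 against 18, and RELCH, at 30 against 58, and CYB5A, at 24 against 48, were among the lowest. Of these genes RAB27B and PMAIP1 were named by rule, and the others after their values were seen.

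The short arm differed from this. The 38 genes of 18q with a mean log2 of at least 6, members included, had a median of -0.27, against -0.01 for the 15 genes of 18p. Of these 15, 8 were below 0 and 2 at least 20% lower, against 55.6% and 15.0% of the 3276. With the hybridisation controls set to 0, these medians were -0.08 for 18q and 0.17 for 18p. Of the 38 genes of 18q, 25 are members, and the arm was chosen for low readings on these same arrays. The contrast between the arms therefore describes that choice and tests nothing. SPIRE1, an actin nucleator gene, was farthest from 0 on 18p at 172 against 102. Among the other chromosomes taken whole, X had a lower median than 18q, -0.33 over 143 genes, and chromosome 1 had one of -0.18 over 364. The medians of the remaining nuclear chromosomes with genes at this level lay between -0.08 and 0.04. A negative median was therefore not confined to 18q.

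**Figure D4:**
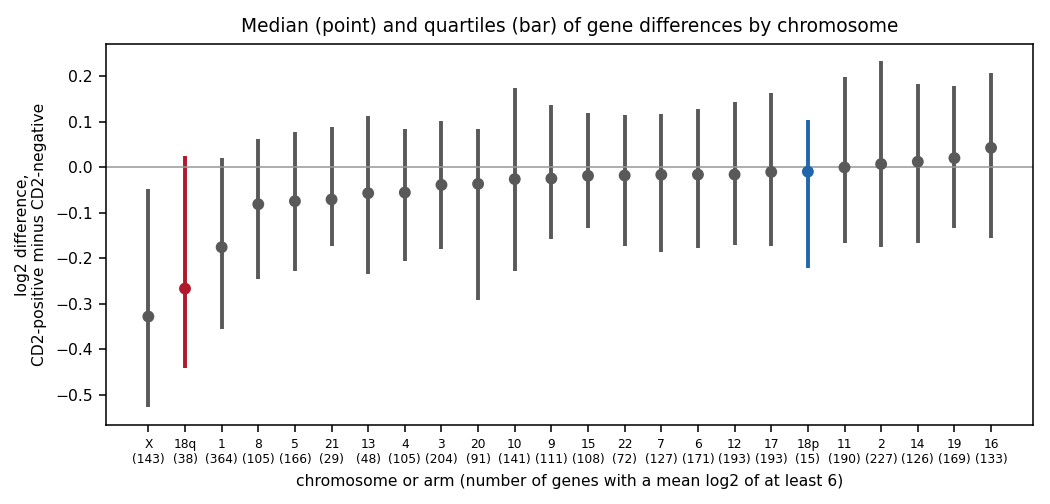
Median (point) and quartiles (bar ends) of the log2 differences of genes with a mean log2 of at least 6, by chromosome, with chromosome 18 split into its arms. 18q, at -0.27 over 38 genes, stands between X at -0.33 and chromosome 1 at -0.18, and 18p, at -0.01 over 15 genes, stands among the rest. Of the 38, 25 are members, and the arm was chosen for low readings on these same arrays.

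Genes whose products work with those of the 18q genes were set beside them in 16 lists of complexes and pathways. Of 195 partner genes with a probe set, none on 18q, 75 had a mean log2 of at least 6. Their median was -0.13, or 0.06 with the hybridisation controls set to 0, with 49 below 0, 14 at least 20% lower and 4 at least 25% higher. As a share 65.3% were below 0, against 55.6% of all 3276 genes, and 18.7% were 20% lower, near the 15.0% of all. Beyond the lists given above, the 5 INO80 partners had a median of -0.04, with UCHL5 on chromosome 1 at 55 against 78. The 6 BAF partners had a median of -0.08, with SS18L1, a gene related to SS18, at 141 against 103 and SMARCE1 at 109 against 139. All 4 SET1 complex partners were below 0, while CXXC1 was above, and DPY30 was the lowest at -0.26. The 3 TFIID partners were below 0, with TAF13 on chromosome 1 at 89 against 139. Both U5 partners, PRPF8 (-0.26) and EFTUD2 (-0.03), were closer to 0 than TXNL4A (-0.44). No Elongator or augmin partner reached a mean log2 of 6.

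**Figure D5:**
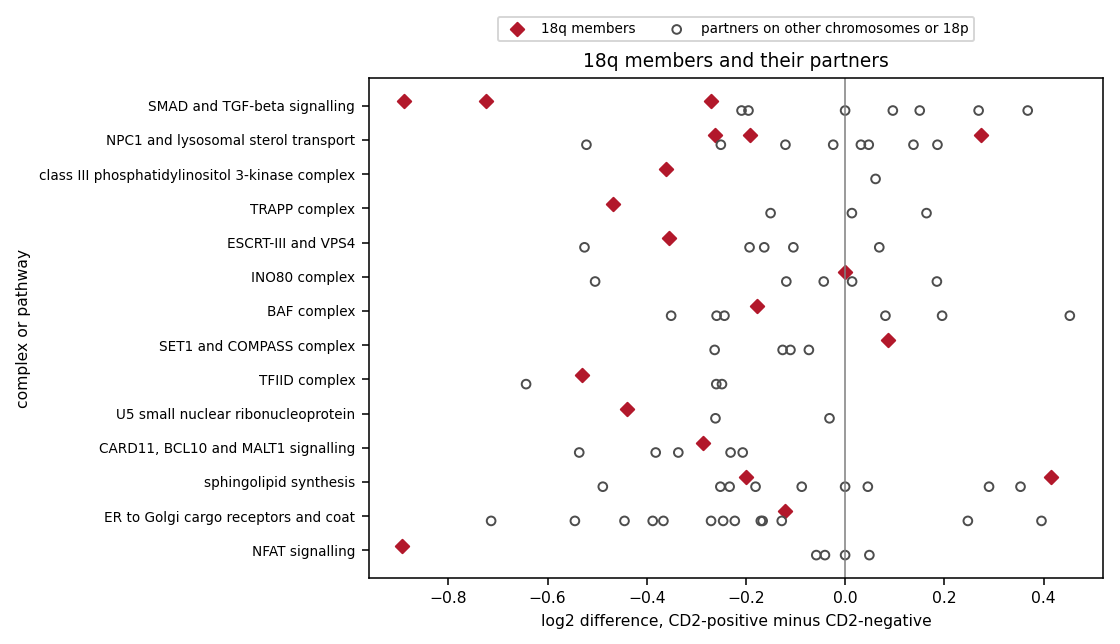
Log2 differences of 18q genes (diamonds) and of their partners elsewhere with a mean log2 of at least 6 (open circles), for the 14 lists with such a partner. The SMAD, TRAPP and NFAT diamonds lie left of all their circles, and those of the MALT1 and LMAN1 lists lie among theirs.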

How the data were processed

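RNA of the 2 HMC1 subclones was measured on 1 array each. The authors deposited 1 intensity per probe set, made with RMA and Affymetrix Expression Console 1.1 according to the submitters' processing notes. That the intensities are linear and rounded to whole numbers was read from the file itself. No source used here gives the background correction, and quantile normalisation, a part of RMA, removes differences in total signal. Values were converted to log2 and subtracted, CD2-positive minus CD2-negative. The platform annotation gave 41097 of 54675 probe sets 1 gene symbol, and Entrez identifiers of 41043 were found in the RefSeq gene table, which gave symbols and gene order. The files name no build, so no coordinates of probe sets are given, and those of the promoters come from the RefSeq promoter table. 18q was taken to start at ROCK1.

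The floor was a mean log2 of 6 over both arrays. Genes were counted as lower from 20% (higher from 25%, the same ratio), 1.5-fold and 2-fold. No test is possible with 1 array per group, and the number of arrays limits the precision. The spread that could be had is that between probe sets of 1 gene, for which the 2 brightest of 844 genes gave a standard deviation of 0.12 per probe set, scaled from their gap.

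The genes, lists and size rules were chosen with earlier results of these data known. All members were named by rule, with CD2, PMAIP1, other chromosome 18 genes at least 1.5-fold different above the floor, and up to 3 partners a list. Other genes named, such as MCFD2, were chosen after their values were seen. The summaries were tested on simulated data. Python 3.11.15, pandas 2.3.3 and statsmodels 0.14.6 were used.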

Additional observations from a re-analysis of the deposited data

How the results depend on the processing

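The median of the 18q genes was below 0 under every alternative run. The share below 0 was 75.9% of 54 genes, but 60.4% of 48 with the second brightest probe set. With plain probe set identifiers it was 64% of 50. The median moved by more than the spread of 1 probe set (0.12) with the mean of all probe sets (-0.22), the second brightest probe set of the 48 genes that have one (-0.16), plain probe set identifiers (-0.20) and centring on the hybridisation controls (-0.18). Floors of log2 5, 6 and 7 left fewer genes (34, 25 and 12), of which 25, 18 and 8 were below 0, 17, 12 and 5 at least 20% lower, and 5, 2 and 1 at least 1.5-fold lower. Centring on the hybridisation controls left 13 at least 20% lower and 4 at least 1.5-fold lower. Averaging all probe sets of a gene left 19 at least 20% lower, against 28 as reported, and 6 at least 1.5-fold lower. At least 1.5-fold lower were 7 when rounded values were moved towards each other, an alternative chosen after seeing the data. The other 18q genes had a median of -0.38 at a floor of log2 5, -0.11 at 7, 0.00 with no floor over 170 genes, most of them dim, and -0.055 when centred on the hybridisation controls. The 18p median, close to 0, turned to 0.047 with the probe sets of each gene averaged, 0.012 and 0.0060 at floors of log2 5 and 7, 0.17 when centred on the hybridisation controls and 0.038 after a lowess correction. The same centring turned the partner median to 0.056. Apart from fewer genes at a floor and the shift that centring makes by construction, the cause was not tested. Of 68 values under alternatives, 41 stayed close to the reported one, medians within 0.12 without a change of sign and counts within 1.5 times. Counts were compared as they stood, without regard to how many genes an alternative left. Low signal over background limits the 9 genes with a mean log2 under 4. No paired analysis was possible because each subclone has 1 array.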
